A study of Rattus norvegicus with 13 samples.

Results

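Whole cholangiocarcinomas were set against cultures that hold only cancer cells and fibroblasts, to see which transcripts the tissue held beyond both cell types and which were held at higher level by the culture. Of the 13 arrays of the series, 6 were compared: the 4 tumours arising from BDEsp cells and the 2 arrays titled as co-cultures. All 14217 genes with a probe set naming a single gene were tested. Each tumour was an intrahepatic cholangiocarcinoma, a cancer of the bile ducts within the liver, from a male young adult Fischer 344 rat, and was snap-frozen after removal. It grew from BDEsp cells, spontaneously transformed bile duct epithelial cells placed in the bile duct. The co-cultures held BDEsp-TDEH10, an epithelial cholangiocarcinoma line, and BDEsp-TDFE4, a line of fibroblastic cells that express alpha smooth muscle actin, in gels of type I collagen from rat tail. Both lines were derived from such tumours of the same rat strain, carry the names of single clones (H10 and E4), and were also profiled alone in gels, on 3 epithelial and 4 fibroblastic arrays. Fibroblastic cells were plated at a range of densities, and the labels do not tie a density to these arrays. Each co-culture array is a single sample, so the fit assumed that it varies like the replicated groups. Nothing in the labels states that replicate arrays came from separate animals or cultures, so the p-values reflect the spread among the arrays, which may be technical.

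An intrahepatic cholangiocarcinoma is a mixed tissue in which bile duct-like cancer glands lie in a dense collagen-rich stroma with activated fibroblasts, macrophages, lymphocytes and vessels, and the liver around it adds hepatocytes. Cancer-associated fibroblasts lay down and remodel matrix and exchange growth factors and chemokines with the cancer cells. A collagen gel gives both cell types a matrix to grow in, but no blood supply and no immune cells.

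The co-culture titles name epithelial cells on one array and fibroblastic cells on the other, but the values did not bear out a separation of the cell types before extraction. The cytokeratin Krt19 stood at 13.49 on the array labelled epithelial and 13.21 on the array labelled fibroblastic, and the collagen chain Col1a2 stood at 13.37 and 13.60 (log2 expression values, as in all that follows). The mean of the 9 epithelial markers was 11.76 and 11.68, and the mean of the 11 fibroblastic markers was 9.77 and 9.79. Over all genes the arrays correlated at r = 0.983, and 352 genes were at least 2-fold apart. Both arrays therefore carried RNA of both lines, and they are called here by their labels, as the epithelial and the fibroblastic co-culture array. A gene was counted as above or below both when limma called it, at adjusted p under 0.05 over all genes, in the same direction against each array. The difference given is then the tumour mean minus the nearer array, with its standard error (SE) and the larger of both adjusted p-values. The same 4 tumours enter both comparisons, which are therefore not independent.

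Tumours were above the epithelial co-culture array in 776 genes (5.46% of those tested) and below it in 1634 (11.5%). Against the fibroblastic co-culture array 891 genes (6.27%) were above and 2028 (14.3%) below. Above both arrays stood 620 genes (4.36%) and below both 1442 (10.1%), and in every gene of both sets all 4 tumours lay beyond both arrays. No gene was called above one array and below the other (0 of 14217; 2 at an unadjusted limma p under 0.05). The genes above both reached further: 136 of 620 were at least 8-fold from the nearer array, against 64 of 1442 below both. Against the mean of both arrays the counts were 1668 (11.7%) above and 2991 (21.0%) below. Ranks alone, without a test, placed all 4 tumours above both arrays in 3722 genes (26.2%) and below both in 5173 (36.4%). The split between directions depended on scaling: with each array centred on its median gene, 938 genes were above both and 1000 below.

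**Figure D1:**
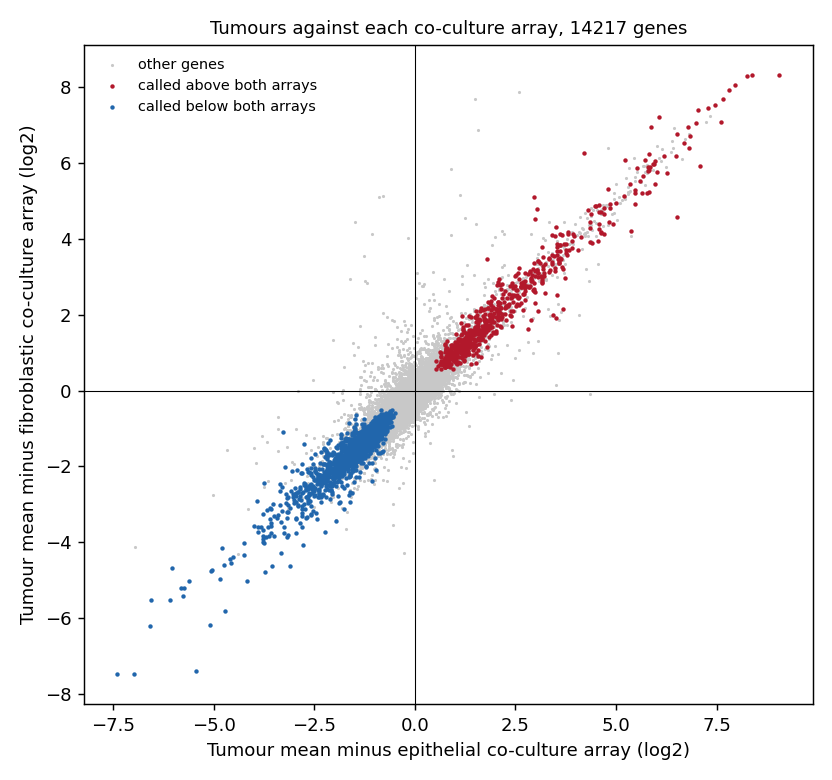
Tumour mean minus the epithelial co-culture array (horizontal axis, log2) against tumour mean minus the fibroblastic co-culture array (vertical axis, log2), with 1 point per gene for 14217 genes. Red points are the 620 genes called above both arrays and blue points the 1442 called below both; the red points reach 8.34 from the nearer array and the blue points -7.39.

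Several properties of the arrays moved with this comparison, and their part in the differences was not tested. The median gene stood between 7.31 and 7.39 in the tumours and at 7.52 and 7.56 in co-culture. The standard deviation over genes was 2.02 to 2.08 in the tumours and 2.22 and 2.26 in co-culture. The 3' minus 5' difference of the actin control probe sets, a sign of RNA integrity, was 0.61 to 0.75 in the tumours and 0.96 and 0.85 in co-culture. In the lines alone it was 1.2, 1.47 and 0.86 on the epithelial arrays, in order. The fibroblastic arrays held 1.72, 2.65, 1.05 and 2.01. Among the tumours the mean of 6 hepatocyte markers varied most, at 13.11, 5.51, 11.48 and 13.25 in tumours 1 to 4 against 4.75 and 4.69 in co-culture. Counts are therefore also given with tumour 2 as the only tumour. That fit compares a single tumour array with a single co-culture array, so its standard errors are larger and calls can be lost for that reason alone.

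Genes of macrophages, the phagocytes of the tissue, stood far above co-culture in every tumour. Of 26 macrophage and monocyte markers measured, 22 were above both arrays and 0 below, with a median difference of 4.76 from the mean of both arrays, where the median over all genes was -0.06. With tumour 2 as the only tumour the count was again 22. C1qa, a subunit of the first complement component that macrophages make, stood at 11.70, 12.03, 11.82 and 12.08 in tumours 1 to 4 and at 5.07 and 5.19 in the epithelial and fibroblastic co-culture arrays. Its tumours lay close together and far above both cultures, with a difference of 6.72 (SE 0.34, adjusted p = 1.02e-06). Its partner C1qb, at 11.05, 11.45, 11.22 and 11.70, stood 6.52 above the nearer array (SE 0.30, adjusted p = 6.59e-07). Fcgr2b, an inhibitory receptor for antibody on myeloid and B cells that liver endothelium also carries, ranged from 10.59 to 11.63 in the tumours against 3.54 and 3.48, a difference of 7.47 (SE 0.35, adjusted p = 6.59e-07). Cybb, the catalytic subunit of the phagocyte oxidase, Ctss, a lysosomal protease of antigen-presenting cells, and the macrophage elastase Mmp12 differed by 5.98, 5.22 and 5.23. The lysosomal marker Cd68 was 3.62 higher, with co-culture values of 6.74 and 6.67.

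The mean of the 7 macrophage markers was 10.43 to 10.81 in the tumours, against 6.11 and 5.86 in co-culture. Cd14, the co-receptor for bacterial lipopolysaccharide, was among the 4 of 26 markers not called, and is named after its values were seen.

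Genes of MHC class II, the molecules that display peptides to helper T cells, were higher too. Of 8 class II presentation genes measured, 7 were above both arrays and 0 below, with a median difference of 4.84. RT1-Da, an alpha chain, stood at 13.10, 13.04, 13.10 and 13.41 in the tumours and at 4.90 and 4.86 in co-culture. The tumours were almost level and the groups were separated by more than 8 units (difference 8.26, SE 0.22, adjusted p = 1.72e-08). Cd74, the invariant chain that escorts class II molecules to the endosome, stood at 12.94, 12.88, 12.95 and 13.21 against 5.04 and 4.92 (difference 7.96, SE 0.32, adjusted p = 4.14e-07). The beta chains RT1-Bb and RT1-Db1 were 7.03 and 6.53 higher. Class II genes are a family of related sequences, and probe sets may bind transcripts of more than a single member.

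Class II promoters share a conserved upstream module whose last element is the Y box, an inverted CCAAT motif bound by NF-Y. Promoter sequence was found for 6 of the 7 class II genes above both arrays. All 6 held CCAAT on either strand within the 250 bases before the start, a motif of 34.0% of the 33469 promoters in the table. The 120 bases before the start are shown for RT1-Da, RT1-Bb and RT1-Db1, the class II chains with the largest tumour excess. They run 5' to 3' on the gene's strand, with CCAAT on either strand in capitals (RefSeq, build GRCr8).

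RT1-Da, chr20:4515295-4515414, plus strand: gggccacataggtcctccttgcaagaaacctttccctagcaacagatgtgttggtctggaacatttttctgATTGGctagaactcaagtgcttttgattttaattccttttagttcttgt
RT1-Bb, chr20:4604119-4604238, minus strand: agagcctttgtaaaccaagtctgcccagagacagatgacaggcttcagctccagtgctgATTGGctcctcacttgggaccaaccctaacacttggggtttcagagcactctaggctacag
RT1-Db1, chr20:4560163-4560282, minus strand: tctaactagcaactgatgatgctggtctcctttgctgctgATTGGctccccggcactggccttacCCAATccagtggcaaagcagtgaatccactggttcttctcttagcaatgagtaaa

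The motif begins 49 bases before the start in RT1-Da and 61 bases before it in RT1-Bb, read as the reverse complement of CCAAT. RT1-Db1 holds it at 80 in that orientation and at 55 as CCAAT itself. Cd74, which is not a class II chain, holds CCAAT itself 189 bases before the start, outside such a window. A match is a description of the letters and not a binding site.

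Lymphocyte genes were above co-culture at lower levels than those of macrophages. Of 29 T and NK cell markers 20 were above both arrays and 0 below (median difference 1.47), and the count was 12 with tumour 2 as the only tumour. Cd8a, the co-receptor of cytotoxic T cells, stood at 9.71, 10.90, 10.01 and 9.87 in the tumours and at 4.66 and 4.82 in co-culture. Tumour 2 was highest, and the difference of 5.30 (SE 0.39, adjusted p = 1.52e-05) was much larger than those of the T cell receptor chains Cd3g (2.64) and Cd3e (1.64). It was also larger than that of the other CD8 chain, Cd8b (2.46), which falls outside the naming rule. The granzymes Gzmb and Gzma, proteases of cytotoxic granules, were 3.00 and 2.98 higher, and tumour 1 had the lowest value of both, 7.25 and 5.40. Ptprc, the common leukocyte antigen CD45, stood at 7.30, 7.42, 6.93 and 7.31 against 4.40 and 4.50 (difference 2.74, SE 0.20, adjusted p = 1.50e-05).

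B and plasma cell markers were above both arrays in 5 of 11, and below in 0. They included Jchain, which links antibody polymers (2.18), and Pou2af1, a coactivator of B cells (2.30). With tumour 2 as the only tumour the count was 2. Neutrophil and mast cell markers were above both in 3 of 17 and below in 0, where 4.36% of all genes were above both. The 3 were the receptor for the growth factor G-CSF, Csf3r (3.39), the chemokine receptor Cxcr2 (0.97) and the mast cell protease Mcpt1 (1.05). The Mcpt1 call was lost when tumour 1, 3 or 4 or either of 2 fibroblastic arrays was left out. A further 2 of the 17 were above a single array, 1 (S100a9) was below a single array, and 11 were not called. The median difference of this list was 0.23.

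**Figure D2:**
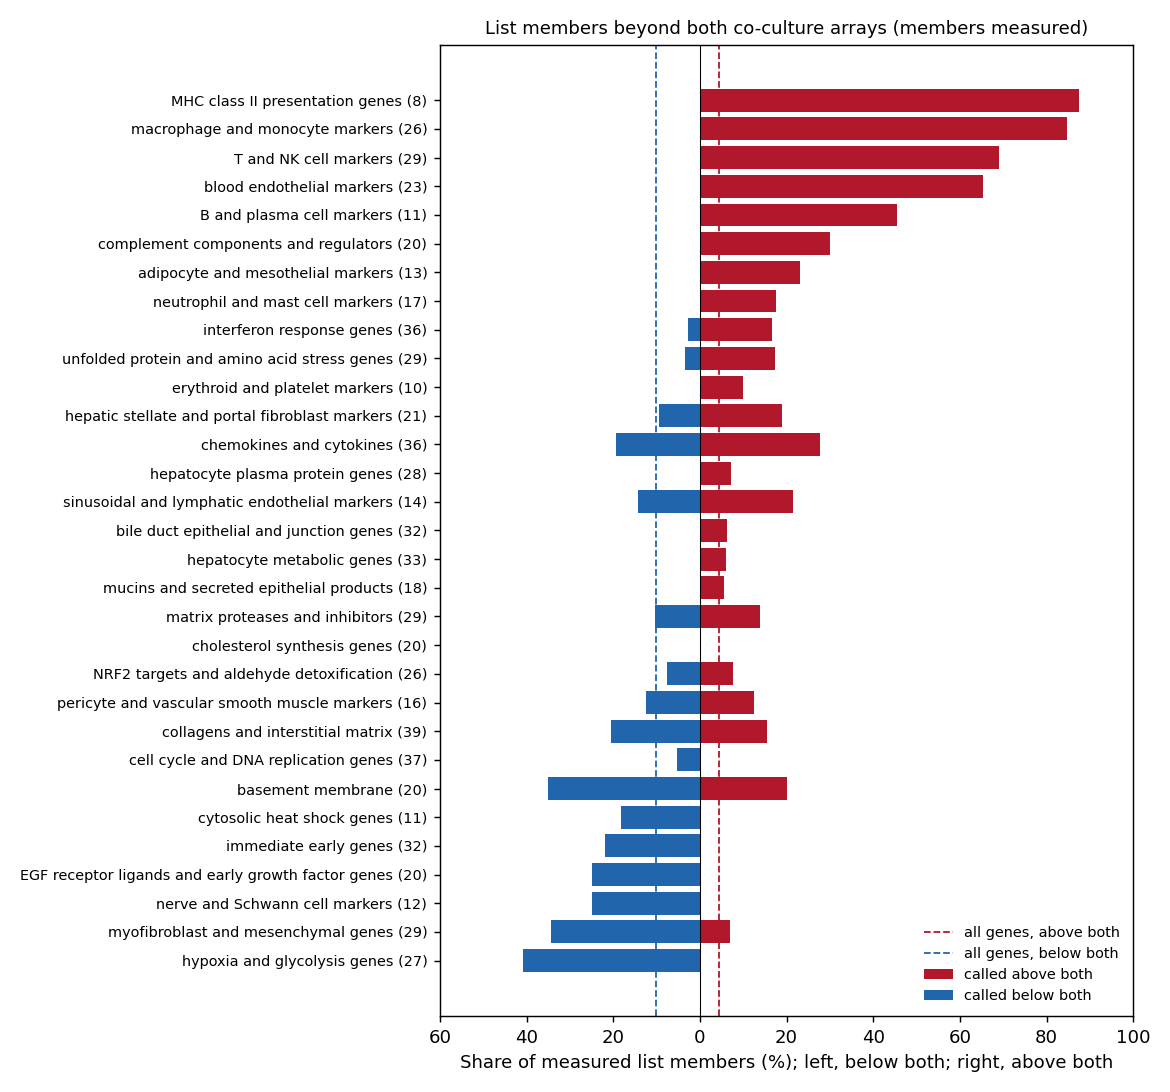
Share of the measured members of each of 31 gene lists (number measured in parentheses) called above both co-culture arrays (red, right) or below both (blue, left), in percent of members. Dashed lines mark the same shares over all genes, 4.36% above and 10.1% below; macrophage and class II lists reach furthest right, and hypoxia and glycolysis genes furthest left.

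Chemokines and cytokines divided between the groups: of 36 measured, 10 were above both arrays and 7 below. Above stood Ccl6 and Ccl9, chemokines of myeloid cells (4.86 and 5.66), the inflammatory cytokine Il1b (3.72) and the interferon-induced T cell attractant Cxcl9 (3.42). Il1b stood at 9.04, 9.33, 8.29 and 9.23 in the tumours and at 5.13 and 5.25 in co-culture, and tumour 3 was lowest for it and for Cxcl9. Ccl9 went with the hepatocyte level instead, at 11.87, 5.97, 9.35 and 11.86, and its call was lost when any of 10 arrays was left out. Cxcr4, the receptor for Cxcl12, was 3.23 higher in the tumours (SE 0.44, adjusted p = 0.000697). Cxcl12 itself stood at 9.25, 9.39, 8.57 and 9.73 in the tumours, at 9.32 on the fibroblastic co-culture array and at 4.88 on the epithelial one. It was called against the epithelial co-culture array only, and was among the genes furthest apart between both cultures.

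Of 23 blood endothelial markers, 15 were above both arrays and 0 below, 1 was above a single array and 7 were not called (median difference 1.65). Emcn, a sialoglycoprotein of venous and capillary endothelium, stood at 7.38, 7.36, 6.73 and 7.84 against 4.14 and 4.03, and its tumours overlapped neither array (difference 3.19, SE 0.34, adjusted p = 0.00017). The VEGF receptor Kdr stood at 7.53, 6.31, 6.44 and 7.90 against 3.89 and 4.13 (difference 2.92). Pecam1, the adhesion molecule CD31, was 1.20 higher, and Ptprb, the vascular endothelial phosphatase, 2.88 higher. With tumour 2 as the only tumour the count was 8.

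Kdr, Ptprb and the lymphatic and sinusoidal receptor Lyve1 were lower in tumours 2 and 3 than in tumours 1 and 4, as the hepatocyte markers were. Lyve1 stood at 7.98, 6.53, 6.66 and 9.26 against 4.08 and 3.74, a difference of 3.53 (SE 0.86, adjusted p = 0.0186). Of 14 sinusoidal and lymphatic endothelial markers 3 were above both arrays and 2 below, where 4.36% of all genes were above and 10.1% below. Leaving out tumour 3 raised the count above to 5, and leaving out any of 8 arrays reduced the count below to 1. Those below were Bmp2 (-3.14), a growth factor, and podoplanin, Pdpn (-1.55), a lymphatic marker that fibroblasts also carry. The fibroblastic line alone held Pdpn at a mean of 10.02 and the epithelial line at 4.87.

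Among pericyte and smooth muscle markers, Rgs5, a G-protein regulator typical of pericytes, stood at 9.81, 8.61, 8.37 and 9.40 in the tumours, at 4.46 and 4.33 in co-culture and at a mean of 4.22 in the fibroblastic line alone. It was 4.58 above the nearer co-culture array (SE 0.47, adjusted p = 0.000124). The muscle filament gene Des stood at 8.22, 7.62, 8.14 and 8.20 in the tumours, below 10.41 and 10.49 in co-culture (difference -2.37, SE 0.52, adjusted p = 0.0107). Cspg4, the pericyte proteoglycan NG2, was also lower (-1.22), a call lost when any of 5 arrays was left out or when arrays were centred. In all, 2 of 16 of these markers were above both arrays and 2 below (1 when any of those 5 arrays was left out), where 4.36% of all genes were above and 10.1% below. Hbb, a globin chain of red cells, was the only called gene of 10 erythroid and platelet markers, at 9.22 to 11.49 in the tumours against 6.85 and 7.06.

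Hepatocyte genes showed the widest spread between tumours. Albumin, Alb, the main protein that hepatocytes secrete, stood at 14.51, 7.50, 13.94 and 14.46 in tumours 1 to 4 and at 4.93 and 4.90 in co-culture. All tumours were above both arrays, and tumour 2 lay far below the other three. The difference was 7.67 with an SE of 2.04 (adjusted p = 0.0267), and the call was lost without tumour 1 or without tumour 3. Rup2, a urinary protein made in the liver, had the same shape, 13.62, 6.54, 13.01 and 13.55 against 4.06 and 4.60 (adjusted p = 0.0339, lost without tumour 1, 3 or 4). Of 28 plasma protein genes 2 were above both arrays, although their median difference was 5.74 and all 4 tumours lay above both arrays in 21. Without tumour 2 the count was 27. For the 33 hepatocyte metabolic genes it was 2, and 26 without tumour 2. The plasma protein genes averaged 12.80, 5.59, 11.15 and 12.91 in tumours 1 to 4, against 5.26 and 5.11 in co-culture.

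Some genes listed with hepatocytes did not follow albumin. Hnf4a, a nuclear receptor of hepatocytes and other endodermal epithelia, stood at 11.37, 10.71, 11.39 and 11.12 in the tumours and at 5.42 and 5.06 in co-culture. Arg1, the urea cycle arginase that macrophages also make, stood at 12.48, 12, 12.50 and 12.82 against 6.42 and 6.68. In both, tumour 2 was lowest by less than 1 unit and all tumours were more than 5 units above the cultures. The differences were 5.73 (SE 0.93, adjusted p = 0.0022) and 5.77 (SE 1.04, adjusted p = 0.00326).

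Complement genes were above both arrays in 6 of 20, and 11 without tumour 2. Serping1, the C1 inhibitor, stood at 12.43, 10.57, 11.20 and 12.79 against 4.75 and 4.69 (difference 7.0, SE 0.66, adjusted p = 8.15e-05). Cfd, factor D of the alternative pathway and an adipocyte product, was 4.38 higher, with tumours at 8.70, 8.92, 9.07 and 9.81. C5ar1, the receptor for the C5a fragment, was 3.41 higher, with tumours close together at 8.58 to 8.91. Apoe, a lipid carrier of hepatocytes and macrophages, stood at 13.80, 13.58, 13.09 and 13.72 against 6.27 and 6.08, and tumour 3, not tumour 2, was its lowest.

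Igf1, a growth factor of liver and stroma, stood at 12.37, 10.10, 10.96 and 12.51 against 4.71 and 4.52 (difference 6.78, SE 1.08, adjusted p = 0.00193). Its order over the tumours was that of the hepatocyte markers. Of 13 adipocyte and mesothelial markers 3 were above both arrays and 0 below. These were Lpl, the lipoprotein lipase (3.91), Cd36, a fatty acid transporter (3.64), and the adipokine Lep (0.78). Lep was near the bottom of the scale throughout, at 4.92 to 5.18 in the tumours against 4.18 and 4.22 in co-culture. A further 2, Adipoq and Fabp4, were called above a single array, and 1, Lrrn4, below a single array. Cd36 was 5.13 in tumour 2 and 7.28 to 8.52 in the other tumours, whereas Lpl was 7.84 in tumour 2.

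**Figure D3:**
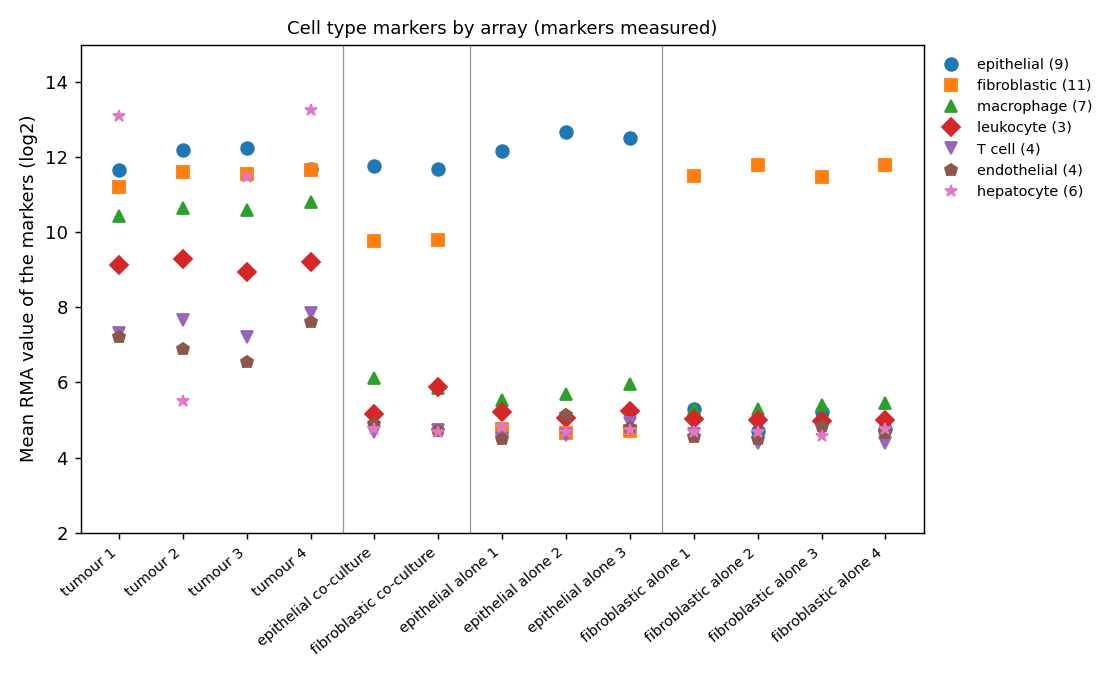
Mean log2 expression value of the markers of 7 cell types (number measured in parentheses) on each of the 13 arrays, with 1 point per array and cell type. Epithelial means are alike in tumours and co-culture, and fibroblastic means are 11.21 to 11.65 in tumours and 9.77 and 9.79 in co-culture. The fibroblastic markers include Lum, Dcn and Mgp, among the genes furthest above both co-culture arrays, and also Thy1 and Fn1, called below both. Macrophage, leukocyte and T cell means are higher in tumours than on any other array, and the hepatocyte mean falls to 5.51 in tumour 2.

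Stromal matrix held the largest differences in both directions. Of 21 hepatic stellate and portal fibroblast markers, 4 were above both arrays and 2 below (1 without tumour 1). Over all genes 4.36% were above both and 10.1% below. Lum and Dcn, small leucine-rich proteoglycans that coat collagen fibrils, were high in the tumours and, in co-culture, below the 25th percentile of genes (5.49 and 5.45). Lum stood at 11.27, 12.12, 11.53 and 12.11 against 3.37 and 3.42, the largest difference of all genes above both (8.34, SE 0.60, adjusted p = 1.31e-05). Dcn stood at 11.94, 12.59, 11.76 and 12.53 against 4.40 and 4.26 (difference 7.80, SE 0.87, adjusted p = 0.000236). On the 4 arrays of the fibroblastic line alone, Lum stood at 3.57, 4.68, 3.52 and 5.34 and Dcn at 4.34, 6.84, 4.26 and 6.53. Arrays 2 and 4 were thus higher for both genes, and every array was below the tumours. These arrays, 2 and 4, also had the largest actin 3' minus 5' differences (2.65 and 2.01), whose part was not tested.

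Mgp, matrix Gla protein, an inhibitor of calcification, behaved differently. It stood at 13.14, 13.89, 13.60 and 13.71 in the tumours and at 4.52 and 5.25 in co-culture, but at 13.61, 14.04, 13.44 and 14.15 on the 4 arrays of the fibroblastic line alone. Tumours and fibroblasts alone overlapped, and both lay far above the co-cultures (difference 8.33, SE 0.36, adjusted p = 5.78e-07 for tumours against the nearer co-culture array).

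Other products of the fibroblastic line showed the same order. Col4a1 and Col4a2, the chains of basement membrane collagen, were 3.02 and 2.29 higher in the tumours than in co-culture, and the line alone was higher still, at means of 10.67 and 9.21. The contractile genes Actg2, gamma smooth muscle actin, and Mylk, myosin light chain kinase, were 4.29 and 2.15 higher, with means of 10.76 and 11.94 in the line alone. The Mylk call was lost without tumour 1. Postn, periostin, a matrix protein of activated fibroblasts, stood at 11.92, 12.71, 12.48 and 12.31 in the tumours, at 10.83 and 10.26 in co-culture and at a mean of 14.05 in the line (difference 1.53, SE 0.27, adjusted p = 0.00313). The transcription factor Zeb2 (1.49) lost its call when any of 8 arrays was left out. Over all 620 genes above both, 38 had a fibroblastic-line mean at or above the tumour mean and 21 an epithelial-line mean there. In 496 every array of both lines alone lay below the lowest tumour.

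**Figure D4:**
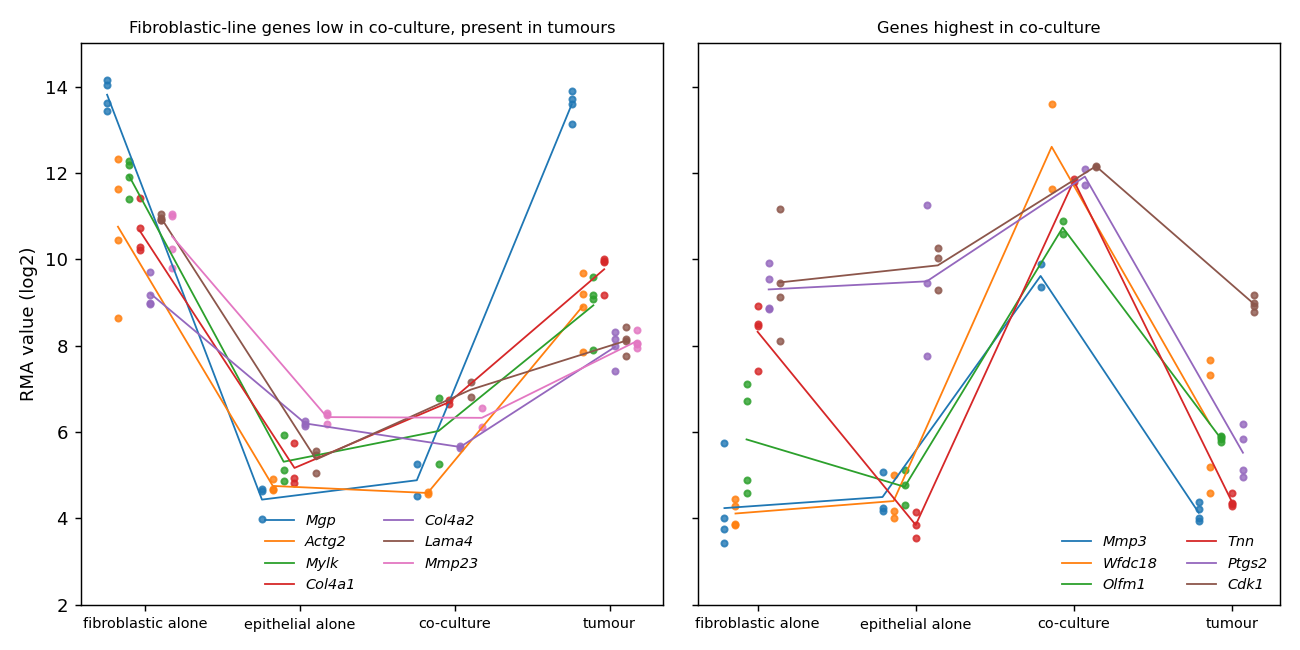
Log2 expression values of 7 genes of the fibroblastic line that were low in co-culture and present in tumours (left) and of 6 genes highest in co-culture (right). Points are single arrays, 4 of the fibroblastic line alone, 3 of the epithelial line alone, 2 of co-culture and 4 tumours; lines join group means in the order drawn and imply no sequence in time.

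Further matrix genes went the other way. Of 39 collagens and interstitial matrix genes 6 were above both arrays and 8 below, and of 20 basement membrane genes 4 were above and 7 below. Tnn, tenascin-N, a matrix glycoprotein of bone and tumour stroma, stood at 4.33, 4.58, 4.29 and 4.35 in the tumours and at 11.78 and 11.86 in co-culture. No gene below both was further from the nearer array (-7.39, SE 0.43, adjusted p = 2.81e-06). Its level in the fibroblastic line alone was between, with a mean of 8.32. Fbln1 and Fbln2, fibulins of the elastic matrix, were lower by -3.54 and -4.44, the second with a call lost without tumour 1. The laminin chains Lamb2, Lama5 and Lamc1 (-2.73, -2.58 and -2.34) and the linker Nid2 (-3.38) were lower, whereas Lama4, a chain of vessels and fibroblasts, was higher (0.97).

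Fn1, fibronectin, stood at 12.36, 11.91, 12.44 and 12.58 against 13.84 and 13.74 (difference -1.42, SE 0.26, adjusted p = 0.00368). Col1a1 stood at 11.35, 11.90, 12.18 and 11.69 against 12.61 and 13.04 and was called below the fibroblastic co-culture array only; another probe set of this gene had the opposite sign. Tnc, tenascin-C, at 9.12 to 10.21 in the tumours and 9.05 and 10.20 in co-culture, lay between and was not called.

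Of 29 myofibroblast and mesenchymal genes, 2 were above both arrays (1 when any of 8 arrays was left out) and 10 below. Over all genes 4.36% were above both and 10.1% below. The median difference of the 29 was -0.97. The transcription factors Prrx1 and Twist1, which set mesenchymal identity, were lower by -3.14 (SE 0.24, adjusted p = 1.98e-05) and -3.74 (SE 0.32, adjusted p = 4.44e-05). Prrx1 stood at 7.13, 6.93, 7.04 and 6.75 in the tumours, at 10.10 and 10.77 in co-culture and at a mean of 11.13 in the fibroblastic line. Vim, vimentin, stood at 12.11, 12.18, 12.20 and 12.39 against 13.92 and 13.79 (difference -1.57, SE 0.26, adjusted p = 0.00207), and Thy1, a surface marker of fibroblasts, was lower by -2.87. Grem1, an antagonist of bone morphogenetic proteins, stood at 5.55, 7.90, 5.96 and 5.45 against 10.93 and 12.03. Tumour 2 was its highest tumour and still below both arrays (difference -4.71, SE 0.72, adjusted p = 0.00154). In bulk RNA, fewer cells of a type and less RNA per cell cannot be told apart, here and in every group above.

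Acta2, the alpha smooth muscle actin that the fibroblastic line expresses, stood at 10.01, 9.95, 10.40 and 10.21 in the tumours. It stood at 7.56 on the epithelial and 9.06 on the fibroblastic co-culture array, and was not called (adjusted p = 0.439). The receptors Pdgfra and Pdgfrb were not called either, with Pdgfrb at 6.85 to 7.25 against 8.07 and 8.00. The mean of the 11 fibroblastic markers was higher in the tumours, at 11.21 to 11.65 against 9.77 and 9.79. At the same time 10 of the 29 mesenchymal genes were lower. The 11 markers include Lum (8.34), Mgp (8.33) and Dcn (7.80), which were among the genes furthest above both arrays. Of the others, Postn was above both (1.53), Thy1 (-2.87) and Fn1 (-1.42) were below both, and Col1a1 was called below the fibroblastic co-culture array only. The mean therefore does not stand for all of its members.

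The main epithelial markers were not called. Krt19 stood at 13.23, 13.80, 13.68 and 12.92 in the tumours, on both sides of the co-culture values of 13.49 and 13.21. Krt7, the adhesion molecule Epcam and E-cadherin, Cdh1, were not called (differences -0.20, 0.18 and -0.37; adjusted p = 0.936, 0.765 and 0.493). Of 32 bile duct epithelial and junction genes, 2 were above both arrays, a share close to the 4.36% of all genes, and 0 below (4 above and 1 below at an unadjusted limma p under 0.05). A further 2 were above a single array and 1 below, and 27 were not called, which does not show that they were alike. The 2 above both were Krt20, an intestinal keratin, at 9.26, 9.71, 9.90 and 8.28 against 5.70 and 5.93 (difference 3.36, SE 0.69, adjusted p = 0.00708), and the desmosomal cadherin Dsg2 (0.71). The hepatocyte growth factor receptor Met was 1.47 higher (SE 0.34, adjusted p = 0.0118). Its ligand Hgf was near the bottom of the scale throughout, at 4.60 to 5.00 in the tumours and 4.63 and 4.08 in co-culture.

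Mucins and secreted epithelial products were above a single array in 5 of 18, with a median difference of 1.38, and above both in 1, the trefoil peptide Tff3, at 8.88, 10.22, 8.39 and 7.67 against 6.11 and 6.05. The count above both was a share close to the 4.36% of all genes. It was 0 without tumour 1, 2 without tumour 4, and 5 and 4 without epithelial arrays 1 and 2. Muc1, a membrane mucin, stood at 8.97 to 10.34 in the tumours and 9.92 and 9.24 in co-culture.

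Some growth factor genes were higher in co-culture, and 11 of the 20 listed were not called against either array. Of the 20 EGF receptor ligands and early growth factor genes 0 were above both arrays (1 at an unadjusted limma p under 0.05) and 5 below, with a median difference of -1.46. Vegfa, the main vessel growth factor, stood at 9.39, 9.36, 9.18 and 9.04 in the tumours and at 12.22 and 11.81 in co-culture (difference -2.57, SE 0.32, adjusted p = 0.000411). Vegfc, its lymphatic relative, Inhba, the activin A subunit, and Gdf15, a stress cytokine, were lower by -2.07, -2.12 and -2.43. Areg, amphiregulin, stood at 6.76 to 7.41 in the tumours, at 8.69 on the fibroblastic co-culture array and at 11.17 on the epithelial one, and was called against the epithelial array only. Its receptor Egfr was not called, at 7.67 to 8.34 against 8.91 and 9.14, and Erbb2 was called below the epithelial array only. Tgfb1 stood at 7.89 to 8.02 against 7.31 and 7.09 and was not called (adjusted p = 0.154).

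**Figure D5:**
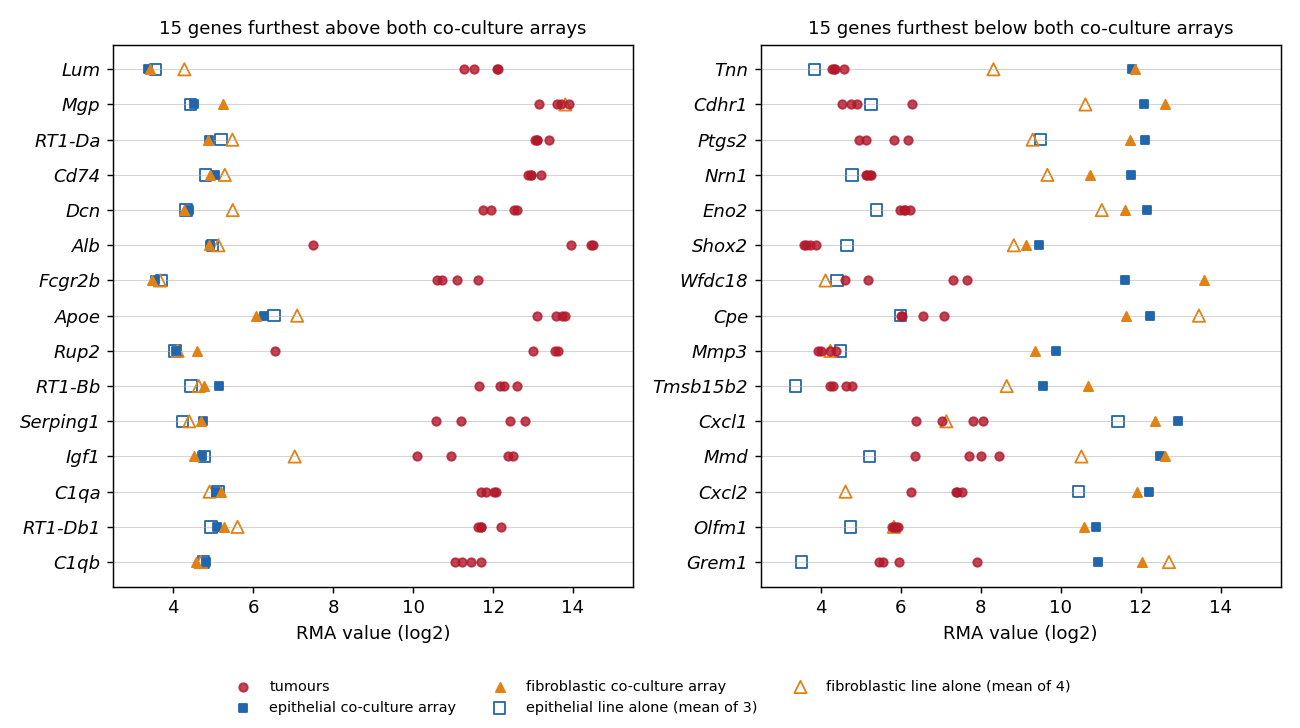
Log2 expression values of the 15 genes furthest above both co-culture arrays (left) and the 15 furthest below (right). Red points are the 4 tumours, filled symbols the 2 co-culture arrays and open symbols the means of the lines alone; Mgp alone on the left has the fibroblastic line at the tumour level, and Alb and Rup2 each have a lone low tumour.

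Inflammatory genes made up part of the lower set. Ptgs2, the inducible cyclooxygenase, stood at 5.84, 6.18, 5.12 and 4.95 in the tumours and at 12.10 and 11.73 in co-culture. The lines alone held it at means of 9.49 (epithelial) and 9.30 (fibroblastic), so co-culture was highest and the tumours lowest (difference -6.21, SE 0.98, adjusted p = 0.00157). Cxcl1, a neutrophil attractant, stood at 7.82, 7.03, 6.39 and 8.05 against 12.93 and 12.36 (difference -5.03, SE 1.35, adjusted p = 0.0241). Its neighbour Cxcl2 stood at 7.54, 7.40, 6.25 and 7.39 against 12.20 and 11.90 (difference -4.76, SE 1.13, adjusted p = 0.0142). For both, the epithelial line alone was the higher line, at means of 11.44 and 10.45. Il6 and Csf3, cytokines of fibroblasts and epithelium, were lower by -3.25 (SE 0.48, adjusted p = 0.00104) and -3.33 (SE 0.31, adjusted p = 7.72e-05). Calls for Ptgs2, Cxcl1 and Cxcl2 were lost with tumour 2 as the only tumour.

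Mmp3, stromelysin 1, an enzyme that cleaves many matrix proteins, was seen at high level in co-culture alone. It stood at 9.88 and 9.35 there, at 3.93 to 4.37 in the tumours and at means of 4.50 and 4.24 in the epithelial and fibroblastic lines alone (difference -5.22, SE 0.68, adjusted p = 0.000533). In 4 genes both co-culture arrays were at least 8-fold above every tumour and every array of both lines: Mmp3, Wfdc18, Olfm1 and Sprr2d. Wfdc18, a small secreted protein of the whey acidic protein family, stood at 11.62 and 13.59 against tumours of 5.19, 7.67, 4.60 and 7.32. Olfm1, an olfactomedin, stood at 10.89 and 10.58 against 5.78 to 5.92. Sprr2d, a small proline-rich protein of squamous epithelium that falls outside the naming rule and was chosen after its values were seen, stood at 8.81 and 8.18 against 3.86 to 4.22.

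Among the 15 genes furthest below both, 13 had a promoter sequence, and 5 of these 13 (38.5%) held an NF-kB site in the 250 bases before the start. The 5 were Tnn, Cdhr1, Eno2, Cxcl1 and Cxcl2, and the promoter of Ptgs2 held no such site. Among the 15 genes furthest above both, 11 had a promoter sequence, and 2 of these 11 (18.2%) held the site. The site was in 6.33% of all promoters and in 8.33% of the promoters of all genes measured. It was in 7.88% of those of all genes above both and in 11% of those below both. AP-1 (TGANTCA) was in 2 of 13 and the TATA box (TATAAA) in 3, against 6.34% and 12.9% of all promoters. Both strands were searched, and overlapping NF-kB matches were merged in the capitals. The 120 bases before the start of both neutrophil chemokines and of Mmp3 are shown as examples of promoters that hold a match. They do not stand for the other genes furthest below both. Capitals mark the NF-kB matches in the chemokines, and the AP-1 match and TATA box in Mmp3.

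Cxcl1, chr14:17479322-17479441, minus strand: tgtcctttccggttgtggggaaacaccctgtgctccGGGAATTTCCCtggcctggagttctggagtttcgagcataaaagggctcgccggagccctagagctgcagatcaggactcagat
Cxcl2, chr14:17467256-17467375, minus strand: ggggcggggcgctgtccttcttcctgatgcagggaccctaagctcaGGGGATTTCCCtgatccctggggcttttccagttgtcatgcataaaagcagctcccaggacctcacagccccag
Mmp3, chr8:12925161-12925280, plus strand: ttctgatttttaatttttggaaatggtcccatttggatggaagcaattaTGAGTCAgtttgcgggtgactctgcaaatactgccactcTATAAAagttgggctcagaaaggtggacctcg

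The capitals span 84 to 74 bases before the start in Cxcl1 and 74 to 64 in Cxcl2, each made of overlapping matches. In Mmp3 the AP-1 match begins 71 bases before the start and the TATA box 32. Whether these letters were bound by a factor was not measured.

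Immediate early genes, which respond within minutes to serum and stress, were lower where they were called. Of 32 measured 0 were above both arrays (0 at an unadjusted limma p under 0.05) and 7 below, with a median difference of -1.61. The transcription factor Maff stood at 5.92, 6.92, 6.2 and 6.46 against 9.87 and 9.69 (difference -3.31, SE 0.51, adjusted p = 0.00141). The phosphatase Dusp1, at 9.29 to 10.43 against 12.66 and 12.34, and Ier3, at 9.77 to 10.26 against 12.63 and 12.02, were lower by -2.45 and -2.06. With tumour 2 as the only tumour the count was 2.

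Hypoxia and glycolysis genes were the list with the largest share below both: 11 of 27 and 0 above (0 at an unadjusted limma p under 0.05), with a median difference of -1.63. In 24 of the 27 all 4 tumours were below both arrays. Egln3, an oxygen-sensing hydroxylase induced in hypoxia, stood at 8.79, 9.55, 9.17 and 8.77 against 11.68 and 11.56 (difference -2.49, SE 0.63, adjusted p = 0.019). Ankrd37, another hypoxia-induced gene, stood at 6.83, 7.17, 7.13 and 6.73 against 9.49 and 9.48 (difference -2.51, SE 0.41, adjusted p = 0.0022). Pfkm, the muscle phosphofructokinase, was lower by -2.63, with another probe set of the gene going the opposite way. Eno2, the neuronal enolase, was not on the list but was among the leading genes below both. It stood at 6.09, 6.23, 5.97 and 6.10 against 12.17 and 11.62 (difference -5.52, SE 0.53, adjusted p = 7.99e-05). The fibroblastic line alone held it at a mean of 11.03. The list averaged 9.50 to 9.87 in the tumours, 11.15 and 11.04 in co-culture, and 9.06 to 10.25 on the arrays of the lines alone, so both co-culture arrays stood above all others. With tumour 2 as the only tumour the count was 4.

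Several leading genes of the lower set, some better known from nerve or endocrine tissue, were expressed by the fibroblastic line. Cdhr1, a photoreceptor cadherin, stood at 4.76, 6.28, 4.90 and 4.52 in the tumours, at 12.09 and 12.60 in co-culture and at a mean of 10.62 in the fibroblastic line alone (difference -6.98, SE 1.02, adjusted p = 0.00115). Nrn1, neuritin, an extracellular neurite-promoting protein, stood at 5.14 to 5.26 against 11.76 and 10.73. Cpe, the prohormone-processing carboxypeptidase E, stood at 6.0 to 7.08 against 12.23 and 11.63. The homeobox factor Shox2 stood at 3.58 to 3.88 against 9.46 and 9.14. All of these had fibroblastic-line means of 8.83 to 13.46 and epithelial-line means of 4.66 to 5.99. Mmd, a membrane protein first described in maturing macrophages, and Tmsb15b2, a thymosin that binds actin, had the same pattern, with differences of -4.85 and -5.09. Nerve and Schwann cell markers were below both in 3 of 12 and above in 0 (1 above at an unadjusted limma p under 0.05), and the 3 were Pmp22, Ncam1 and Tubb3, with another probe set of Tubb3 going the opposite way. In 797 of the 1442 genes below both, every array of both lines alone lay above the highest tumour, and in 413 at least 1 of the lines had a mean at or below the tumour mean.

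Proliferation genes were called in few cases. Of 37 cell cycle and DNA replication genes 0 were above both arrays (0 at an unadjusted limma p under 0.05). The count below both was 2, or 4 without fibroblastic array 3, where 10.1% of all genes were below both. The median difference was -0.54. Cdk1, the mitotic kinase, stood at 8.98, 8.79, 9.17 and 8.92 against 12.14 and 12.17 (difference -3.17, SE 0.81, adjusted p = 0.0224), and the phosphatase Cdc25b was lower by -1.50. Mki67, the antigen of cycling cells, stood at 8.44, 8.61, 9.28 and 8.23 against 10.15 and 10.53 and was not called (difference -1.51, SE 0.72, adjusted p = 0.174). Arrays of the lines alone varied widely in this list, with averages of 7.33 to 10.04.

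Interferon response genes were above both arrays in 6 of 36, with a median difference of 0.87. Bst2, tetherin, stood at 10.04, 9.81, 9.31 and 10.08 against 6.60 and 6.72 (difference 3.09, SE 0.41, adjusted p = 0.000593). Ifit3, an antiviral effector, stood at 6.64, 8.13, 5.53 and 6.46 against 4.04 and 4.37, and Oas1a, an RNA sensor, at 6.35, 7.57, 5.41 and 6.55 against 4.54 and 4.56. Tumour 2 was highest and tumour 3 lowest in both, and both calls were lost without tumour 1 and after a further quantile normalization. The Oas1a call was also lost without tumour 4 or fibroblastic array 4. With tumour 2 as the only tumour 12 of the 36 were above both, and with tumours 2 and 3 alone 2. The exonuclease Isg20 was lower in the tumours (-1.34), a call lost without tumour 1, 3 or 4 or fibroblastic array 1, and when arrays were centred.

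Stress pathways showed small numbers of calls. Unfolded protein and amino acid stress genes were above both in 5 of 29 and below in 1, or 2 when any fibroblastic array was left out. The chaperones Sdf2l1, Pdia3 and Calr, which fold proteins in the endoplasmic reticulum, were higher by 1.85, 1.61 and 0.92, and Herpud1, of the degradation machinery, by 1.26, a call lost with any of 6 arrays left out. Another probe set of Pdia3 had the opposite sign. Ddit3, the transcription factor CHOP, was lower by -1.56. None of these calls was made with tumour 2 as the only tumour. Of 11 cytosolic heat shock genes 2 were below both arrays, Hspb8 (-2.54) and the co-chaperone Bag3 (-1.29), and 0 above both. A further 2 were called above a single array, and the median difference was 0.05. The Bag3 call was lost without tumour 1 or 3 and when arrays were centred. Of 26 NRF2 targets 2 were above both arrays, the retinal dehydrogenase Aldh1a1 (3.82) and Pgd (1.21). Another 2 were below both, Akr1b8 (-1.84) and Cbr1 (-1.56). Over all genes 4.36% were above both and 10.1% below, so these counts lay near the shares of all genes. No cholesterol synthesis gene of 20 was called beyond both arrays (at an unadjusted limma p under 0.05, 1 was above and 2 below).

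Of 29 matrix proteases and inhibitors 4 were above both arrays and 3 below, the latter a share close to the 10.1% of all genes. Beside the macrophage proteases Mmp12 and Ctss, the aggrecanase Adamts5 (1.86, lost without tumour 3 or 4) and Mmp23 (1.55) were higher, and the inhibitors Timp3 (-2.99) and Serpine2 (-2.08) were lower. Timp3, a matrix-bound inhibitor of metalloproteases, stood at 7.96, 8.38, 7.93 and 8.87 against 11.80 and 11.27, with no overlap. Spp1, osteopontin, was high everywhere except in the epithelial line alone, at 12.64 to 13.93 in the tumours and 12.66 and 12.52 in co-culture, and was not called.

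The tumours also varied among themselves within both sets. The median standard deviation over the 4 tumours was 0.27 in genes above both and 0.19 in genes below both, against 0.18 over all genes. Among the 620 genes above both, tumour 4 was highest in 242 and tumour 3 lowest in 242. Among the 1442 below both, tumour 2 was highest in 606 and tumour 1 lowest in 671.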

How the data were processed

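Total RNA was profiled on single-colour Affymetrix rat arrays; per the labels, the authors extracted it with Trizol and labelled it as biotinylated cRNA. The authors summarised probe sets by RMA into the deposited log2 expression values, per the submitters' processing notes. That the scale is log2 was read from the range of the values. Neither the version of RMA nor the set of arrays normalized jointly is given in the sources used here. On arrays the number of samples, not read depth, limits precision.

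Among 31099 probe sets there were 57 controls, which were dropped, 20826 that name 1 gene, 436 that name several and 9780 that name none. Current symbols came from the Entrez identifier (20758 probe sets) or an accession (2), and 66 stayed as given. For the 4525 genes with several probe sets, that with the highest mean over the 13 arrays was used, which left 14217 genes.

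limma 3.58.1 in R 4.3.3 was fitted to 5 group means over all 13 arrays (residual degrees of freedom 8), without trend or robust moderation. The p-values are two-sided and were adjusted over all genes (Benjamini-Hochberg). Data were simulated with 14217 genes, 100 of them changed at each size. Calls beyond both arrays recovered 25 at a log2 change of 1 and 66 at 2, with 0 false calls, so many differences of 1 were missed. The simulation gave the single co-culture arrays the spread that the fit assumes. All genes left unchanged had the same mean in every group. Recovery and false calls in the real data may therefore differ.

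The groups, gene lists and rules were chosen with earlier results of these data known. Named genes are the 15 furthest above and below both arrays, up to 4 per list and direction, and a set of genes always given: Krt19, Krt7, Epcam, Cdh1, Acta2, Vim, Postn, Col1a1, Fn1, Tnc, Alb, Cd74, Ptprc, Cd3e, Pecam1, Cd68, Mki67, Spp1, Muc1, Erbb2, Met, Egfr, Areg, Ptgs2, Cxcl1, Hgf, Pdgfb (no probe set used here), Pdgfra, Pdgfrb, Tgfb1, Cxcl12 and Cxcr4. Promoters are from RefSeq (GRCr8) and were matched by symbol. Plots were drawn with matplotlib 3.10.9, and tables were handled with pandas 2.3.3 and numpy 2.4.6 under Python 3.11.15.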

Additional observations from a re-analysis of the deposited data

Results flagged for a closer look

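For each of the 156 named genes the 4 tumours were searched for a lone sample far from the other three, by Dixon's criterion at the 95% level, which chance meets in about 1 group in 20. It was met by 10 genes. Tumour 2 was low for Alb (7.50), Rup2 (6.54), Des (7.62) and Col4a1 (9.17). Tumour 3 was low for Cxcl2 (6.25), Sdf2l1 (9.90) and Tgfb1 (7.89) and high for Akr1b8 (10.81). Tumour 4 was high for RT1-Db1 (12.20) and tumour 1 for Lep (5.18). The mean of the hepatocyte markers was 5.51 in tumour 2 and 11.48 to 13.25 in the other tumours. Its part in these values was not tested.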

How the results depend on the processing

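No named gene reversed under the alternatives computed gene by gene (the normalizations, the filter, the mean of probe sets, the moderation and the choices of arrays), although single probe sets of Tubb3, Pfkm, Pdia3, Cdh1, Col1a1 and Egfr had the opposite sign. In these settings 67 of 138 called named genes lost their call in at least 1 setting, 56 of them with tumour 2 as the only tumour. Leaving out 1 array at a time gave 507 to 849 genes above both co-culture arrays and 1079 to 1525 below, 621 to 1010 above and 1203 to 1697 below the epithelial array, 723 to 1091 above and 1559 to 2147 below the fibroblastic array, and 1198 to 1644 above and 2337 to 3054 below their mean. Centring arrays on the median gave 938 genes above both, 1186 above the epithelial array, 1587 above the fibroblastic array and 2915 above the mean. Testing every probe set gave 945 above both, 1182 above the epithelial and 1344 above the fibroblastic array, of more features. With the lowest 25% of genes left out 413 were above both and 1094 above the mean. Tumour 2 as the only tumour gave 314 above and 329 below both, 359 and 381 for the epithelial array, 409 and 510 for the fibroblastic array, and 544 and 795 for the mean. Without tumours 1 and 4, 821 were below both, 923 below the epithelial array, 1190 below the fibroblastic array, and 959 above and 1785 below the mean. An adjusted p under 0.01 left 306 above and 670 below both, 384 and 766 for the epithelial array, 394 and 929 for the fibroblastic array, and 763 and 1743 for the mean. A 2-fold limit left 895 above and 1635 below the mean. By size alone, with every tumour at least 2-fold beyond, 575 were above and 1227 below the mean and 949 below both. A stricter limit calls fewer genes by construction. Fewer tumours in a fit give larger standard errors, so calls can be lost there for that reason alone. The cause of the other shifts was not tested. With the co-culture arrays as 1 group, an alternative added after the data were seen, 1830 genes were above their mean and 3166 below. Counts within 1.5 times came from a further quantile normalization (765 above and 1156 below both), the tumours and co-culture arrays alone (772 and 2020), the mean of a gene's probe sets (659 and 1258), and a trend with robust moderation (623 and 1385). No paired analysis was possible because the co-culture arrays carry no replicate number. A single array on the co-culture side limits every difference.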
